A study of Rattus norvegicus with 8 samples.

Results

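This account concerns a cluster of circular RNAs (circRNAs) on the plus strand of rat chromosome 2, taken as every deposited circRNA that starts at or after 22900000 and ends by 23030000 on Rnor_6.0. The window held 19 of the 51995 circRNAs in the table. It was chosen for its main circRNA, from 22950023 to 22964734, which ranked 6 by mean abundance over the whole table and varied widely among the injured samples. Those values are therefore given as a description, without a test. The working name of the locus is Homer1. The table names no genes and the gene table used is for another assembly, GRCr8, so the name was not checked and the circRNAs are called by position.

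The study measured total RNA from rat cerebral cortex, in 4 samples after moderate traumatic brain injury (here mTBI) and 4 samples from sham rats, with 1 library each. Tissue was taken at 24 h, from the cortex around the injury or from the same site in sham rats, after perfusion with cold saline. The sources used here do not give strain, age, sex or injury device. The labels count 8 cortex samples and do not state that each came from a different animal, so p-values measure the spread between these samples.

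A circRNA forms when a splice donor is joined back to an acceptor that lies upstream of it in the same transcript. Sequencing recognises it by reads across that back-splice junction, so each circRNA is defined by the acceptor at its start and the donor at its end (for a plus-strand gene), and its read count does not scale with its length. Several circRNAs can share an acceptor or a donor, and one gene can give a dominant circle and many minor ones. circRNAs lack free ends, resist exonucleases and are abundant in neurons. Homer1, the gene the working name refers to, encodes a postsynaptic scaffold protein that binds metabotropic glutamate receptors, and a circRNA of Homer1 is known to be abundant in mammalian brain and to respond to neuronal activity.

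Across the whole table, the 8 libraries summed to 4966 to 5874 RPM of circRNA reads (RPM scales junction reads to the library's total). With the smallest value in a library read as 2 reads, an assumption behind all read numbers here, this is 384910 to 452692 junction reads per library. A value of 0 does not tell a circRNA with no read from one with a single read or one the caller passed over. The summed circRNA abundance was lowest in mTBI replicates 1 (4966 RPM) and 2 (5002 RPM). The cortex label was not set against marker genes, because no genes are named. In bulk tissue, fewer cells of a type and less RNA per cell cannot be told apart.

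The 19 circRNAs used 11 starts and 7 ends, of which 3 starts and 3 ends served more than 1 circRNA. The main start, 22950023, was shared by 6 circRNAs and the main end, 22964734, by 8. Circles beginning at the main start made up 92.4% of the RPM of the locus, and circles closing at the main end 96.4%. A further start at 22954725, 4.7 kb into the main circle, served 2 circRNAs and 6.06% of the RPM. The end at 23000600, 50.6 kb downstream of the main start, closed 5 circRNAs and 2.03% of the RPM. Most of the starts and ends were therefore rare alternatives around one dominant acceptor and one dominant donor.

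**Figure D1:**
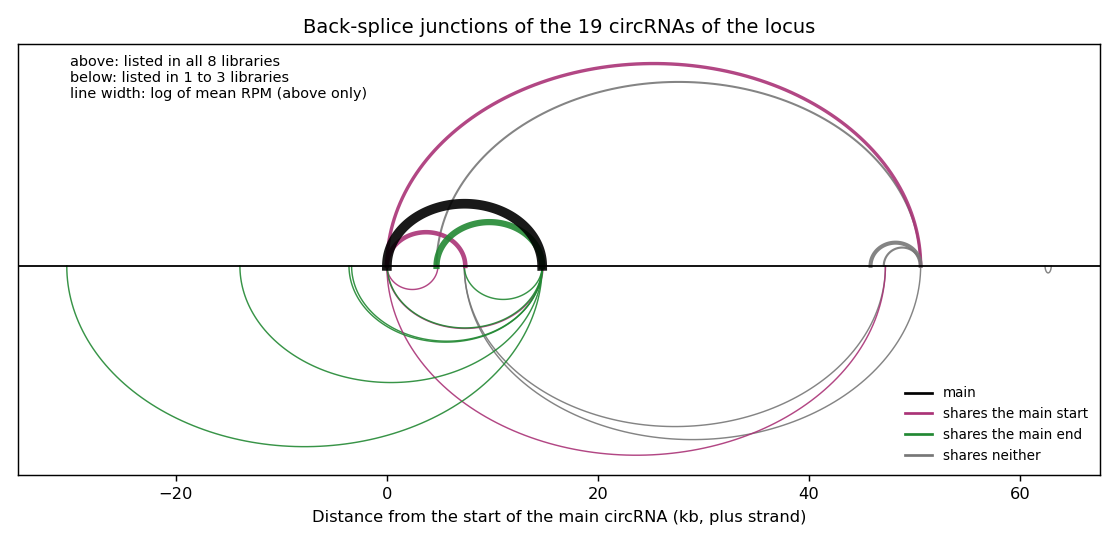
Map of the 19 circRNAs, each drawn as an arc from its start to its end, with the distance from the start of the main circRNA in kb on the horizontal axis. The 7 circRNAs listed in all 8 libraries are drawn above the line with a width that grows with the log of the mean RPM, the 12 listed in 1 to 3 libraries below it, and colours show which junction end is shared with the main circRNA.

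Of the 19, 7 were listed in all 8 libraries, and these were the ones that passed the filter for testing (listed in at least 4 libraries). The other 12 were listed in 3 libraries (4 circRNAs), 2 libraries (3) or 1 library (5), at no more than 0.141 RPM. A circRNA just outside the window, from 22887057 to 22964734, also closed at the main end and was listed at 0.0388 RPM in sham replicate 1 alone. No circRNA of the opposite strand overlapped the stretch from 22919686 to 23012974 that the 19 cover.

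The main circRNA stood at 43.4, 26.9, 29.2 and 34.1 RPM in sham replicates 1 to 4, and mTBI replicates 1 to 4 held 18.6, 50.7, 51.9 and 33.5 RPM. The lowest and the 2 highest of the 8 values came from injured samples, and the groups overlapped. The highest mTBI value was 2.80 times the lowest, against 1.62 times in sham, or 33.4 ± 7.34 RPM for sham and 38.7 ± 15.8 RPM for mTBI (SD, n = 4 each). These values rested on 1438 to 3986 junction reads per library. Their spread within groups was 313 times that expected from counting alone (chi-square per degree of freedom), with 124 in sham and 502 in mTBI. The median circRNA averaging at least 10 reads had 2.19. That measure grows with read depth, and the main circRNA averaged 2784 reads against a median of 22.6. The main circRNA's SD of log2 abundance was 0.304 in sham and 0.694 in mTBI, against medians of 0.356 and 0.364. Those medians come from circRNAs with far fewer reads and hold more counting error. They therefore do not show that the main circRNA varied little in sham. Of the 1808 circRNAs averaging at least 40 reads, 53 had a larger standard deviation of log2 abundance in the mTBI group. Relative to the library's own circRNA sum, scaled to the mean sum, the main circRNA still ranged from 20.1 to 54.6 RPM.

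The circRNA with the second highest level, from 22954725 to 22964734, starts inside the main circle and closes at the same donor. It stood at 2.56, 1.87, 1.85 and 2.48 RPM in the sham samples, against 2.50, 2.30, 2.48 and 2.69 RPM in the injured ones. The 4 injured samples lay within 1.17 times of each other, while the main circRNA in the same libraries differed 2.80 times. In sham, replicates 2 and 3 were low for this circRNA and for the main one alike. Its level in mTBI exceeded that in sham by 0.20 on the log2 scale (95% interval -0.12 to 0.52, n = 4 each), which did not pass the test (limma adjusted p = 0.973). Here and below, the log2 scale is log2(RPM + 0.0259), which understates the change of low circRNAs.

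The ratio of these 2 circRNAs with the same end is independent of how a library was scaled. It was 17.0, 14.3, 15.8 and 13.8 in sham, and 7.41, 22.0, 21.0 and 12.5 in mTBI. All 4 sham ratios lay between the 2 lower and the 2 higher mTBI ratios, and the means were close, at 15.2 ± 1.44 in sham and 15.7 ± 7.00 in mTBI (SD, n = 4 each). The main circRNA as a share of all junction reads of the locus was lowest in mTBI replicate 1, at 84.2% (95% Wilson interval 82.4 to 85.8%), and highest in mTBI replicate 2, at 92.5% (91.7 to 93.2%). The sham shares ran from 89.0% to 91.2%. These intervals treat each read as an independent molecule, so PCR copies would make them too narrow, and they leave out variation between samples. The locus was chosen for the spread of the main circRNA among the injured samples, so the gap between these shares is description only.

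**Figure D2:**
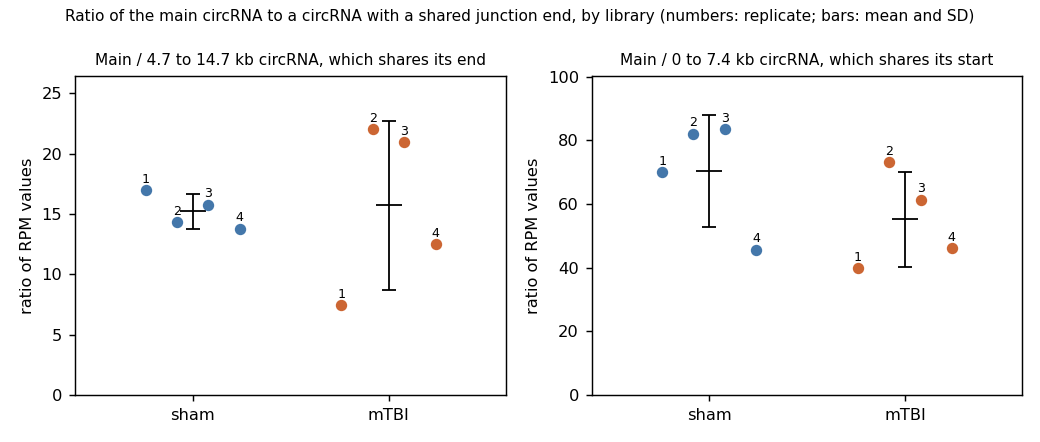
Ratio of the main circRNA's RPM to that of the end-sharing circRNA (4.7 to 14.7 kb, left) and of the shorter start-sharing circRNA (0 to 7.4 kb, right), with 1 point per library, replicate numbers, and mean and SD as bars. On the left the sham ratios sit between 13.8 and 17.0 and the mTBI ratios between 7.41 and 22.0.

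Among the circRNAs that begin at the main start, the shorter one, from 22950023 to 22957449, was measured at 0.620, 0.328, 0.349 and 0.748 RPM in the sham samples, against 0.464, 0.695, 0.847 and 0.727 RPM in the injured ones. Sham replicates 2 and 3 and mTBI replicate 1 were the 3 lowest libraries here, as they were for the main circRNA. The mTBI mean was higher by 0.45 on the log2 scale (95% interval -0.07 to 0.97), with overlapping groups (limma adjusted p = 0.973, unadjusted p = 0.0875). It ran from 0.28 without sham replicate 2 to 0.65 without sham replicate 4. The unadjusted limma p was 0.0201 without sham replicate 4, 0.0305 without mTBI replicate 1 and 0.0497 without sham replicate 1. With each other library left out in turn, the unadjusted limma p was above 0.0875, from 0.142 (mTBI replicate 2) to 0.301 (sham replicate 2). The adjusted p was 0.947 to 0.994 over the libraries left out. The main circRNA was 39.9 to 83.5 times as abundant as this one, lowest in mTBI replicate 1 and highest in sham replicate 3.

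The longer start-sharing circRNA, from 22950023 to 23000600, extends past the main end to the downstream donor. It stood at 0.233, 0.249, 0.233 and 0.271 RPM in the sham samples, against 0.103, 0.386, 0.221 and 0.156 RPM in the injured ones. The sham samples were close together (1.16 times from lowest to highest), and the injured ones were spread 3.74 times, with mTBI replicate 1 lowest and mTBI replicate 2 highest. At 8 to 30 reads per library, its spread was 5.40 times counting in mTBI and 0.102 times in sham. The group difference was -0.30 on the log2 scale (95% interval -0.98 to 0.38, limma adjusted p = 0.986), and it was -0.60 without mTBI replicate 2 and -0.04 without mTBI replicate 1.

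The remaining tested circRNAs share neither end with the main one, and all 3 close at 23000600. The most abundant of them, from 22995852 to 23000600, lies wholly downstream of the main circle. It stood at 0.452, 0.367, 0.440 and 0.464 RPM in the sham samples, against 0.284, 0.270, 0.378 and 0.597 RPM in the injured ones, with the highest value in mTBI replicate 4 (log2 difference -0.22, 95% interval -0.76 to 0.31, limma adjusted p = 0.992). In mTBI replicate 2, where the main circRNA was near its highest, this downstream circRNA was at its lowest. It was nearly as low, at 0.284 RPM, in mTBI replicate 1, where the main circRNA was lowest. The circRNA from 22997106 to 23000600 ranged from 0.0388 to 0.116 RPM in the sham samples and from 0.0516 to 0.130 RPM in the injured ones. With 3 to 10 reads per library, its spread was 0.982 times that expected from counting. Values for the circRNA from 22954725 to 23000600 were 0.181, 0.0786, 0.129 and 0.0258 RPM in the sham samples, against 0.0516, 0.0515, 0.0261 and 0.104 RPM in the injured ones, or 2 to 14 reads (limma adjusted p = 0.980).

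**Figure D3:**
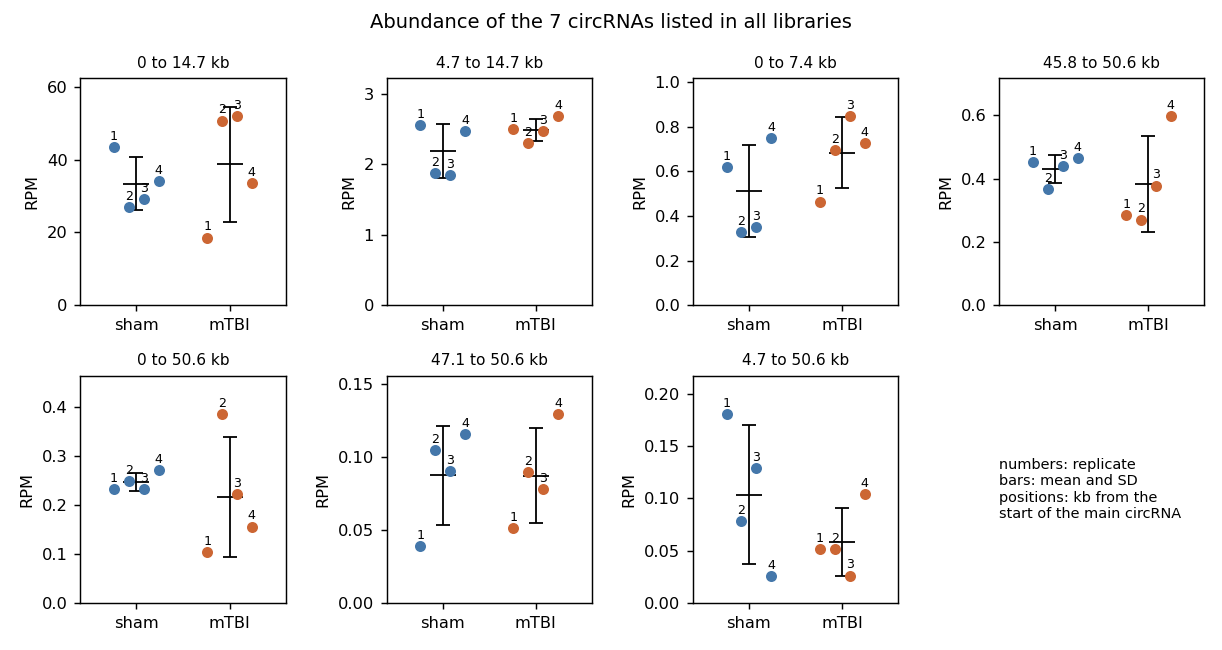
RPM of the 7 circRNAs listed in all libraries, 1 panel each, named by start and end in kb from the start of the main circRNA, with 1 point per library, replicate numbers, and mean and SD as bars. All groups overlap. The mTBI samples spread from 18.6 to 51.9 RPM for the main circRNA (0 to 14.7 kb) and from 2.30 to 2.69 RPM for the one sharing its end (4.7 to 14.7 kb).

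The order of levels was clear at the top and not further down. The main circRNA exceeded the end-sharing one 15.4 times by their means, and the end-sharing one exceeded the shorter start-sharing one 3.92 times, each in all 8 libraries. The shorter start-sharing circRNA lay above the downstream one (22995852 to 23000600) in 6 of 8 libraries, with overlapping ranges. The downstream one lay above the longer start-sharing circRNA in 7 of 8, and that one above the circRNA from 22997106 to 23000600 in 8 of 8. The 2 lowest, from 22997106 and from 22954725 to 23000600, did not differ beyond their spread (5 of 8 libraries).

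Whether injury shifted any circRNA of the locus was tested within the fit over the whole table. None of the 6 tested circRNAs besides the main one passed an adjusted p of 0.05 (limma), where 0.0248% of the 20174 circRNAs tested did. At an unadjusted p under 0.05 the count was 0 of 6, against 4.68% of all tested, and limma voom also called 0. Their log2 changes were above 0 for 3 of 6, with a median of -0.10, against a median of -0.02 over all circRNAs tested. The groups overlapped for all 6, where 2.81% of all tested circRNAs had groups that did not. Summed over the 18 circRNAs other than the main one, the locus reached 3.66 ± 0.632 RPM for sham and 4.11 ± 0.448 RPM for mTBI (SD, n = 4 each). That difference was 0.45 RPM, and the end-sharing circRNA made up most of the sum. It was 0.27 RPM without sham replicate 2 and 0.66 RPM without mTBI replicate 1.

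By junction class, the 5 minor circRNAs at the main start summed to 0.764 ± 0.210 RPM for sham and 0.935 ± 0.276 RPM for mTBI, and the 7 at the main end to 2.26 ± 0.432 and 2.64 ± 0.128 RPM. The 6 that share neither summed to 0.635 ± 0.0358 and 0.534 ± 0.200 RPM (SD, n = 4 each). Each difference was smaller than the larger SD of its groups.

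Several rare circRNAs at the main end were listed unevenly. The circRNA from 22946430 to 22964734, which starts upstream of the main start, was listed at 0.141, 0.0912 and 0.0908 RPM in mTBI replicates 2, 3 and 4 and at 0 in mTBI replicate 1 and in all 4 sham libraries. The one from 22919686 to 22964734 was listed at 0.0772 and 0.0651 RPM in mTBI replicates 2 and 3 only. Both were listed in fewer than 4 libraries and so were not tested. They are named here because of this pattern. With no filter, the first had an unadjusted limma p of 0.00434 and an adjusted p of 0.622. The variance there came from the intensity trend over the whole table (311970 degrees of freedom), and this circRNA's own spread played no part. In that fit 1218 of 51995 circRNAs had an unadjusted p under 0.05. Because this circRNA was picked after its values were seen, its p-value is no separate evidence of a change. By contrast, the ones from 22936093, 22950063 and 22957357 to 22964734 were each listed in 2 sham libraries and 1 mTBI library. Their values above 0 were 0.0257 to 0.0524 RPM. The one from 22946676 to 22964734 was listed in 1 library of each group.

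Whether the minor circRNAs varied with the main one was examined over the 8 libraries, on the log2 scale, for the 4 that averaged at least 10 reads. The 2 that share its start had the higher correlations. For the longer one (22950023 to 23000600) Pearson's r was 0.70 (exact permutation test, two-sided, p = 0.0550, adjusted p = 0.972 over 6150 circRNAs) and Spearman's rho 0.31 (exact p = 0.462, adjusted p = 0.998). For the shorter one (22950023 to 22957449) r was 0.67 (exact p = 0.0683, adjusted p = 0.972) and rho 0.74 (exact p = 0.0458, adjusted p = 0.998). The end-sharing circRNA (22954725 to 22964734) had r = 0.25 (exact p = 0.545, adjusted p = 0.974) and rho = 0.07 (exact p = 0.882, adjusted p = 0.998). The downstream circRNA (22995852 to 23000600) had r = 0.09 (exact p = 0.830, adjusted p = 0.989) and rho = 0.07 (exact p = 0.882, adjusted p = 0.998). None passed after adjustment. With 8 libraries the smallest possible exact permutation p was 2.48e-05, so no circRNA could pass alone over 6150, whatever its r. The adjusted p therefore cannot decide which members vary with the main one. The differences between these correlations were not tested. The order of libraries was not the same in both groups. In sham, the end-sharing circRNA was high in replicates 1 and 4 like the main one. In mTBI it was lowest in replicate 2, where the main one was near its highest. The spread of the end-sharing circRNA in mTBI was 0.766 times that expected from counting. Its order among the mTBI libraries therefore cannot be told from counting error. The longer start-sharing circRNA was nearly level in sham. In mTBI it was lowest in replicate 1, like the main one, and highest in replicate 2, where the main one was near its highest. In mTBI replicate 3, where the main one was highest, it stood at 0.221 RPM, just under the lowest sham value of 0.233 RPM. At 8 to 30 reads per library, that gap cannot be told from counting error. With 4 libraries per group, no r is given within groups.

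Against the whole table, the start-sharing circRNAs lay near the upper edge and the others in the middle. Of the 6150 other circRNAs averaging at least 10 reads, 3.64% had an r with the main circRNA at or above that of the longer start-sharing one, and 4.57% at or above that of the shorter one. The corresponding shares were 32.6% for the end-sharing circRNA and 46.8% for the downstream one. Over all 6150, 0% passed an adjusted p of 0.05, which no circRNA could reach alone with 8 libraries. An exact p under 0.05 was found for 4.68% (3.15% with a positive r), and the median r was 0.06.

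**Figure D4:**
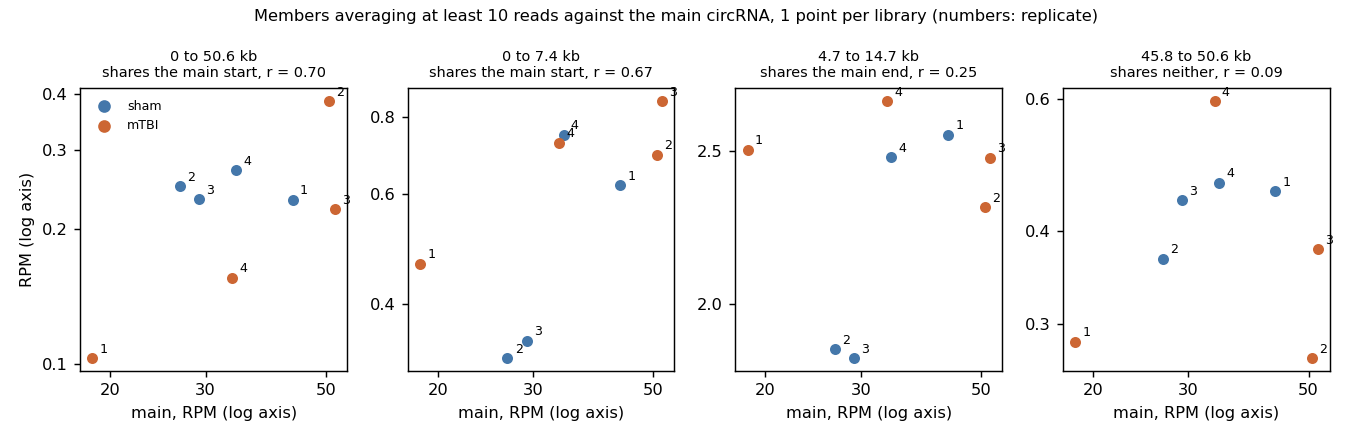
RPM of the 4 circRNAs averaging at least 10 reads against the RPM of the main circRNA, 1 point per library with its replicate number, both axes on a log scale. The 2 start-sharing circRNAs (left) have r = 0.70 and 0.67, and the end-sharing and downstream ones (right) r = 0.25 and 0.09.

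Single libraries weighed heavily in these correlations. Without the 2 libraries farthest from the median of the main circRNA on the log2 scale, mTBI replicates 1 and 3, r was 0.52 for the longer and 0.69 for the shorter start-sharing circRNA, 0.57 for the end-sharing one and -0.43 for the downstream one. In plain RPM the 2 farthest libraries are mTBI replicates 2 and 3, and without those r was 0.67, 0.51, 0.23 and 0.78 in the same order. The downstream circRNA thus had the lowest or the highest r of the 4, depending on which libraries were left out. Without mTBI replicate 1, the library with the least main circRNA, r fell to 0.35 for the longer start-sharing circRNA and stood at 0.76 for the shorter one. In the same comparison it rose to 0.58 for the end-sharing circRNA and turned to -0.44 for the downstream one. The shorter start-sharing circRNA kept r between 0.58 and 0.76 with each library left out in turn. After each group's mean was subtracted, r was 0.70 for the shorter one (exact permutation within groups, p = 0.0226, adjusted p = 0.977) and 0.79 for the longer one (exact p = 0.139, adjusted p = 0.977). Permutation within groups has fewer arrangements, so here too no single circRNA could pass after adjustment.

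**Figure D5:**
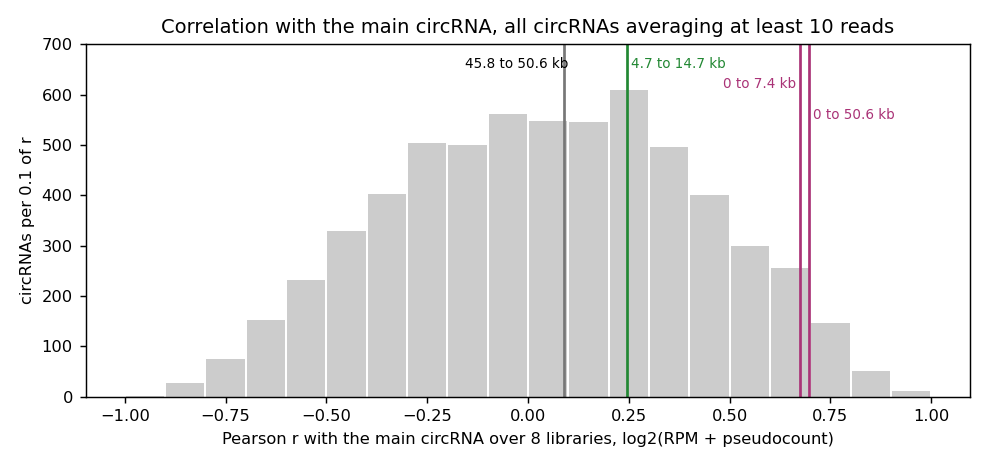
Number of circRNAs, of the 6150 averaging at least 10 reads, by their Pearson r with the main circRNA over 8 libraries, in steps of 0.1. Vertical lines mark the 4 locus circRNAs, named by kb from the main start, with the start-sharing ones at 0.67 and 0.70 and the others at 0.25 and 0.09.

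The summed abundance of all minor circRNAs followed the main one with r = 0.65, and the summed library abundance with r = 0.32, over 8 libraries that share these totals. The sums by class had r = 0.87 for the main start, 0.43 for the main end and -0.01 for neither. Without mTBI replicates 1 and 3 these were 0.81, 0.69 and -0.54, and without mTBI replicates 2 and 3 they were 0.75, 0.31 and 0.78. The library sum had r = -0.25 and 0.78 in these same subsets. As sums over members chosen with earlier results known, these carry no test. The 2 tested circRNAs below 10 reads had r = 0.04 (22997106 to 23000600) and -0.11 (22954725 to 23000600), at 2 to 14 reads per library.

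The circRNAs most like the main one in pattern came from other chromosomes. The closest, from 111353572 to 111367041 on chromosome 8 (plus strand), had values of 0.362, 0.197, 0.220 and 0.258 RPM in the sham samples, against 0.129, 0.309, 0.352 and 0.234 RPM in the injured ones. Its r was 0.96 over 8 libraries (exact permutation p = 0.000595, adjusted p = 0.675). The next, all on plus strands, ran from 1164675 to 1169033 on chromosome 18 (r = 0.95), from 66393648 to 66426089 on chromosome 11 (r = 0.95), from 36930749 to 36931726 on chromosome 12 (r = 0.93) and from 113191385 to 113194036 on chromosome 6 (r = 0.93). All 5 were lowest in mTBI replicate 1, at 0.129, 0.0516, 0.593, 0.400 and 0.658 RPM in that order. This largely follows from their choice by correlation with the main circRNA, which was lowest in that library. Their adjusted p ran from 0.675 to 0.775, so none of the 5 passed over the 6150 correlations computed. With 8 libraries, none could have passed alone.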

How the data were processed

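The authors deposited RPM values, 1 column per library, with chromosome, start, end and strand of each circRNA, per the file headers. Trimmomatic 0.36, DESeq and Rnor_6.0 are listed in the submitters' processing notes. The aligner, the circRNA caller and whether positions count from 0 or 1 are not stated there, nor elsewhere in the sources used here. Per the labels, the library kit was a stranded total RNA kit with ribosomal RNA removal, and the RNA integrity number was at least 7. The sham columns are headed as controls, the word the labels' protocol uses.

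In every library, dividing by 0.5 times the smallest value gave whole numbers (tolerance 0.01), so that value was read as 2 reads. The test was limma 3.58.1 under R 4.3.3, for circRNAs above 0 in 4 or more libraries (intensity trend, Benjamini-Hochberg adjustment over all tested) on log2(RPM + 0.0259), the pseudocount being the median of the smallest values. Correlations over libraries used all 40320 pairings and were adjusted over all circRNAs averaging at least 10 reads. Functions were tested on simulated data. Python 3.11.15, numpy 2.4.6, pandas 2.3.3, scipy 1.17.1 and matplotlib 3.10.9 were used. Replicate pairs of a group differed by 3.14 to 4.03 times counting noise, so no pair was taken as 1 library deposited more than once.

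The members and tests were chosen with earlier results of these data known. The text names the main circRNA, all others listed in at least 4 libraries and the 5 circRNAs elsewhere with the highest correlation; the rare circRNAs with values were chosen after those were seen. Permutation tests planned for sums over members were left out for that reason, and the sums are given as values. No circRNA sequence was used here.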

Additional observations from a re-analysis of the deposited data

Results flagged for a closer look

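Of 36 groups of 4 libraries, covering the 7 circRNAs listed in all libraries and the sums, shares, ratios and library totals, 2 had 1 library far from the other 3. Chance flags about 1 group in 20. The sum of the 6 circRNAs sharing neither end with the main one reached 0.830 RPM in mTBI replicate 4, while the other injured samples had 0.412 to 0.482 RPM (gap over range 0.832, above Dixon's 95% critical value). Sham replicate 2 listed 21508 circRNAs in all, against 22806 to 23069 in the other sham libraries (0.832).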

How the results depend on the processing

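None of the 6 tested minor circRNAs passed in the planned fit or in any of the 18 alternatives where it was tested, with adjusted p from 0.622 upward (limma). The whole-table count, 5 as planned, was 10 with 4 times the pseudocount, 55 with no filter, 0 with a mean of at least 10 reads (295 at an unadjusted p under 0.05), 10 after median centring of the libraries, 1 with no variance trend, 23 with robust shrinkage, 3 with limma voom and 2 to 9 with each library left out. The fit with the replicate number as a block called 0 (889 unadjusted). Same-numbered libraries did not deviate together (correlations -0.02 to 0.01), so the numbers were not used to pair the samples. Pairing with little effect on circRNA levels would look the same. The log2 change of the circRNA from 22997106 to 23000600 ran from -0.24 to 0.18 over the libraries left out, that of the one from 22954725 to 22964734 from 0.12 to 0.28, from 22995852 to 23000600 from -0.45 to -0.09 and from 22954725 to 23000600 from -0.91 to -0.24. The correlation of the main circRNA with the one from 22995852 to 23000600 turned to -0.14 on the scale of circRNA shares, ran from -0.44 to 0.49 with libraries left out, and was -0.43 without mTBI replicates 1 and 3 and 0.78 without mTBI replicates 2 and 3, alternatives chosen after seeing the data. The r of 0.65 with the summed minor circRNAs was 0.54 with only those listed in at least 4 libraries and 0.89 without the end-sharing one, also chosen afterwards. The cause of these shifts was not tested. edgeR on recovered reads was not run, because the smallest values do not show a single read. Depth limits circRNAs under 10 reads.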
